A study of Mus musculus with 12 samples.

Results

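Antimicrobial peptides and proteins form the chemical barrier of the skin, and 8 genes that encode them were followed in mouse back skin: the beta-defensins Defb1, Defb3, Defb4, Defb6 and Defb14, the cathelicidin Camp, and the granule and inhibitor proteins Ltf and Slpi. The genes were chosen by name, with earlier results of these data known. All 8 were among the 18505 genes of the expression table and passed the filter on low values. The study asked how Banzhilian formula (BZLF), a botanical prescription of traditional Chinese medicine applied to the skin, acts on psoriasis-like lesions. The lesions were induced with imiquimod (IMQ) cream, which activates toll-like receptors and is a common way to model psoriasis in mice.

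RNA-seq was performed on 12 skin samples taken on day 10 from wild-type BALB/c mice, described in the study's methods as male and 5 to 6 weeks old. The control group (n = 4) had petroleum jelly. The IMQ + NS group (n = 4) had IMQ cream followed by saline (NS), and the IMQ + BZLF group (n = 4) had IMQ cream followed by BZLF. By the study's methods, both IMQ groups were then covered with gauze and a polyurethane film, and no cover is named for the control group. Cream and cover can thus not be told apart in comparisons with control. The dose of BZLF that the sequenced mice received was not given in the sources used here. The model is an acute one in whole skin, so each value is an average over all cells of the piece taken.

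Beta-defensins are short cationic peptides made mainly by epithelial cells, and some of them rise when keratinocytes sense microbes or cytokines such as IL-17A, IL-22 and IL-1. Their shared trait is a fold held by disulfide bonds between 6 cysteines. Cathelicidin is stored in neutrophil granules and is also made by keratinocytes, and in human keratinocytes the vitamin D receptor can control its gene. Lactoferrin, encoded by Ltf, binds iron and is held in the secondary granules of neutrophils and in gland secretions. The secretory leukocyte protease inhibitor, encoded by Slpi, restrains neutrophil elastase and also acts on microbes. High levels of antimicrobial peptides are a known trait of psoriatic plaques.

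Defb14, Defb4, Defb6 and Defb3 lay in this order, all on the plus strand, within 101 kb of chromosome 8 (chr8:19194357-19295291, GRCm38, GENCODE vM21). Defb1 lay 2.48 Mb further along the same chromosome (chr8:21776599-21795185, plus strand). Slpi is on chromosome 2 (chr2:164354070-164389095, minus strand), and Camp (chr9:109847379-109849617, minus strand) and Ltf (chr9:111019271-111042767, plus strand) are both on chromosome 9. Each of the 5 beta-defensin genes has 2 exons, and their coding sequences, from 189 to 207 bases, are shown because the levels of these near relatives were measured from reads that can be alike. Capitals mark the last 6 in-frame cysteine codons (TGT or TGC), 5′ to 3′, from the GENCODE transcripts.

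Defb3: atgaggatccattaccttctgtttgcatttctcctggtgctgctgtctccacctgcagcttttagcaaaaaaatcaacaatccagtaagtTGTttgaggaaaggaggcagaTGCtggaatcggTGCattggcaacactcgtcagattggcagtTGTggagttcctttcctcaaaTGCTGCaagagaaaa

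Defb4: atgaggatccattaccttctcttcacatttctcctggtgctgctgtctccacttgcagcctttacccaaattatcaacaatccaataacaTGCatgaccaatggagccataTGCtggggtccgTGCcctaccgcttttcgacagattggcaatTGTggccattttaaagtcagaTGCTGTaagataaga

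Defb6: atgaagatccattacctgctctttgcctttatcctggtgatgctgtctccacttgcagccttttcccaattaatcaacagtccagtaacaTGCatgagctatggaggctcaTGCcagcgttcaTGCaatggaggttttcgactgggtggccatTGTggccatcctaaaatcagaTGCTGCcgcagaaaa

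Defb14: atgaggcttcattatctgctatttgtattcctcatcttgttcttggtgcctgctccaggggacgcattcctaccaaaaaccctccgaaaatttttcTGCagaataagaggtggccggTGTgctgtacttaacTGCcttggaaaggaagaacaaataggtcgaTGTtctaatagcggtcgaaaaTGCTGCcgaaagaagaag

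Defb1: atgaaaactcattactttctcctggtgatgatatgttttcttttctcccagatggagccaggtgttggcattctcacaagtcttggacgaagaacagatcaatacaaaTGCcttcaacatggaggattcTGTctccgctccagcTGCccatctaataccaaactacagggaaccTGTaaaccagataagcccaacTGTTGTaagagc

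The spacing of the capitals is the family's signature. Between successive cysteine codons stood 6, 3, 9, 6 and 0 other codons in Defb3, Defb4 and Defb6, and 6, 4, 9, 6 and 0 in Defb14 and Defb1. Defb4 and Defb6 were identical at 78.3% of aligned coding positions and Defb3 and Defb4 at 75.7%, with longest identical runs of 23 and 27 bases. Defb1 was at most 51.4% identical to any of the others. How reads with several matches were shared out was not given in the sources used here, so part of a value may belong to a near copy. Defb5 was the only further Defb gene aligned, and at 85.4% identity it was the closest to Defb3 of those aligned. It was listed above 0 in 1 sample only, IMQ + NS replicate 2, at 0.134 FPKM.

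The values are FPKM, that is, fragments divided by transcript length and by the fragments mapped in that sample. They add up to between 444660 and 506622 in a sample, and 16649 to 16941 genes were above 0. The read depth of single samples is unknown from these values. Control replicate 2 stood apart from the other control samples: its summed FPKM of 8 hair shaft and inner root sheath markers was 1884, against 19.4 to 56.9 in the other control samples. Transcripts of other organs were also present, and same-numbered control and IMQ + BZLF samples held them at like levels. The 6 pancreas markers summed to 172, 189, 192 and 17.8 FPKM in control replicates 1 to 4 and to 164, 181, 183 and 17.7 in IMQ + BZLF replicates 1 to 4. In IMQ + NS replicates 1 to 4 they summed to 40.4, 48.4, 207 and 2.03 FPKM, replicate 3 being the highest of the 12 samples. The 7 seminal vesicle markers summed to 40.8 FPKM in control replicate 2 and 39.9 in IMQ + BZLF replicate 2, and to at most 0.044 in any other sample. The 6 kidney markers reached 5.50 and 3.98 FPKM in replicate 1 of the same 2 groups and at most 0.110 elsewhere. The skin label was met, with basal and spinous keratinocyte markers summing to between 2037 and 8010 FPKM over the samples. The part of the hair shaft and foreign transcripts in the values of the antimicrobial genes was not tested.

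Defb3, an inducible beta-defensin, had the widest range of the 8 genes on the log2(FPKM + 0.1) scale. In the control samples it was at 0.155, 0.311, 0.556 and 0.240 FPKM. With IMQ + NS it was at 90.4, 153, 378 and 142 FPKM, and with IMQ + BZLF at 0.640, 0.0808, 0.630 and 0 FPKM. Every IMQ + NS sample was thus far above all others, and the control and IMQ + BZLF samples overlapped. On the log2(FPKM + 0.1) scale used throughout, the rise of Defb3 with IMQ + NS over control was 8.72 ± 0.44 (SE, n = 4 and 4; limma, adjusted p = 1.7e-06), and it fell by 9.04 ± 0.69 in IMQ + BZLF against IMQ + NS samples (adjusted p = 4.3e-04). Among the 15288 genes tested, this was the lowest value of the latter comparison. The 7 low values above 0 lay within 0.211 of a whole multiple, from 1 to 8, of the smallest of them, a spacing that counts of a few fragments would also give. At this depth a difference between control and IMQ + BZLF samples was not detectable, at -0.32 with a 95% interval from -1.83 to 1.20 (adjusted p = 0.709).

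Defb4, a gene of the same cluster and likewise an inducible peptide, was listed at 0 in all 4 control samples. It was at 7.60, 4.22, 16.8 and 8.06 FPKM with IMQ + NS and at 0.562, 0.682, 0.885 and 0.640 FPKM with IMQ + BZLF. The 3 groups did not overlap. No fold against the control group is given because that group is listed at 0, although both differences from it passed the test (adjusted p = 3.2e-06 and 9.2e-06). The size of such a difference is set by the constant in the logarithm, and with a constant of 1 that of IMQ + BZLF fell under the limit for a call. Against IMQ + NS samples, the level with IMQ + BZLF fell by 3.39 ± 0.35 on the log2 scale (adjusted p = 0.00151), and the mean with IMQ + BZLF stood at 7.55% of that with IMQ + NS.

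Defb14, the third gene of this kind, was lowly expressed. Its levels were 0.545, 0.716, 1.11 and 0.472 FPKM in control samples, 2.39, 3.95, 9.22 and 3.44 FPKM with IMQ + NS, and 0.310, 1.13, 1.10 and 0.112 FPKM with IMQ + BZLF. The IMQ + NS samples were above all others, while control and IMQ + BZLF samples overlapped. Defb14 rose by 2.46 ± 0.40 with IMQ + NS over control (adjusted p = 0.00101) and fell by 2.83 ± 0.61 in IMQ + BZLF against IMQ + NS samples (adjusted p = 0.0278). This last call was lost without IMQ + NS replicate 2, 3 or 4 or IMQ + BZLF replicate 1, at adjusted p from 0.0528 to 0.0739.

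Defb6, a beta-defensin known from epithelia and skeletal muscle, was the most abundant of the 8 genes in every one of the 12 samples. It was at 190, 261, 301 and 270 FPKM in control samples, 433, 433, 781 and 402 FPKM with IMQ + NS, and 99.5, 199, 227 and 133 FPKM with IMQ + BZLF. Its difference between IMQ + NS and control was small beside that of Defb3, at 0.97 ± 0.23 on the log2 scale (adjusted p = 0.00637). The groups did not overlap, but the value was just under the limit of 1 set for a call, and it passed that limit without control replicate 3 or 4 or without IMQ + NS replicate 1, 2 or 4, at 1.001 to 1.07. With IMQ + BZLF it fell by 1.65 ± 0.29 against IMQ + NS (adjusted p = 0.0126). The mean in IMQ + BZLF samples, 165 ± 58.5 FPKM (SD, n = 4), was lower than the control mean of 255 ± 46.8 (SD, n = 4), but 2 samples overlapped the control range and the difference of -0.69 missed the threshold (95% interval from -1.28 to -0.09, adjusted p = 0.0518).

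Defb1 is known as a constitutive beta-defensin of epithelia, and it had the smallest difference of the 8 genes between the IMQ groups. Its levels were 13.7, 9.69, 17.8 and 21.9 FPKM in control samples, 35.03, 30.2, 34.3 and 30.3 FPKM with IMQ + NS, and 24.4, 27.8, 25.1 and 31.4 FPKM with IMQ + BZLF. Every sample that had IMQ was above every control sample. Defb1 rose by 1.10 ± 0.22 with IMQ + NS (adjusted p = 0.00320), a call that was lost without control replicate 2, at 0.89. Between IMQ + BZLF and IMQ + NS samples the difference was -0.26 ± 0.09 (95% interval from -0.47 to -0.06, adjusted p = 0.131), so the data leave room for a small fall and not for one of 1 on the log2 scale. Against control samples the IMQ + BZLF group was 0.84 ± 0.23 higher (adjusted p = 0.0144), under the limit for a call.

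**Figure D1:**
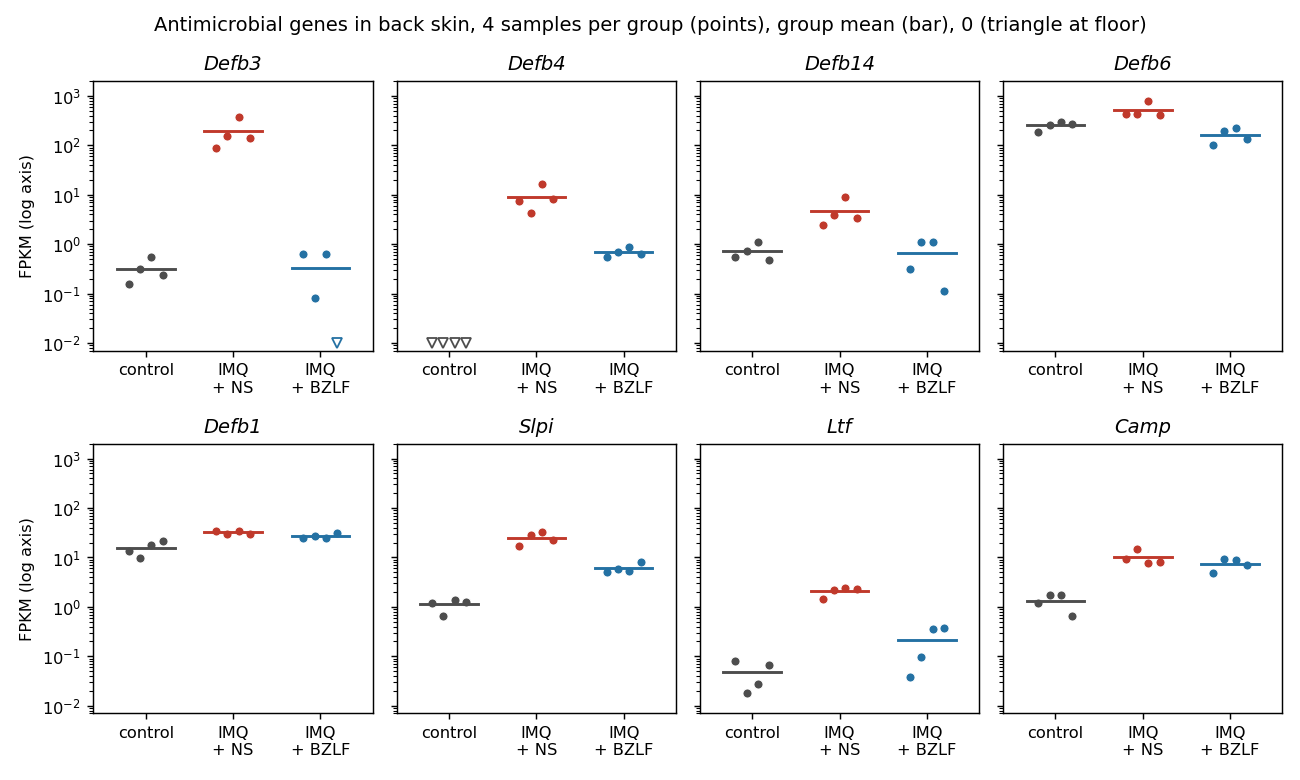
FPKM (log axis) of the 8 antimicrobial genes in each of the 12 samples by group, with bars at the group means and open triangles at the axis floor for samples listed at 0. For Defb3, Defb4, Defb14, Defb6, Slpi and Ltf all 4 IMQ + NS samples lie above all IMQ + BZLF samples, whereas Defb1 and Camp overlap between these groups.

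Summed over the 5 beta-defensins, the samples held 204 to 320 FPKM in the control group, 568 to 1220 FPKM with IMQ + NS and 125.4 to 254.6 FPKM with IMQ + BZLF. FPKM is scaled by transcript length, so the sum weighs the genes by transcript number and not by read number. Defb6 made up 92.2% to 96.0% of it in control samples, 64.0% to 76.2% with IMQ + NS and 79.4% to 89.1% with IMQ + BZLF. Defb3 made up 0.0761% to 0.174%, 15.9% to 31.01% and 0% to 0.5104% in the same order of groups. Defb1 took 9.84% to 19.4% in IMQ + BZLF samples, more than the 2.81% to 6.17% of IMQ + NS samples or the 3.57% to 7.51% of control samples. Thus IMQ + NS skin differed from control skin both in the amount of beta-defensin transcript and in its makeup.

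**Figure D2:**
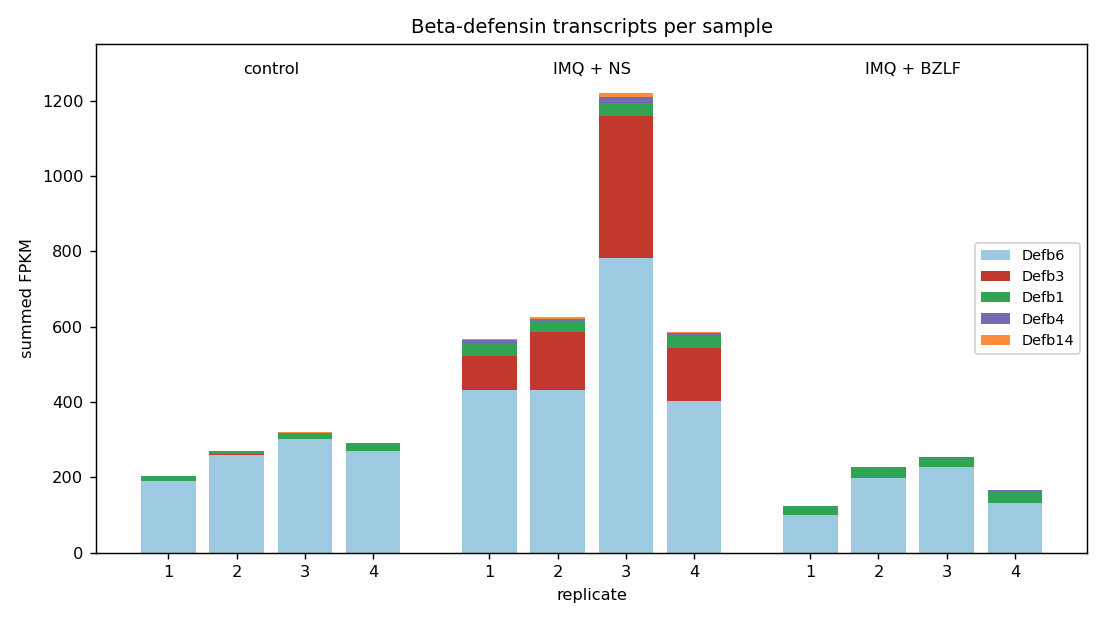
Stacked bars of the FPKM of the 5 beta-defensin genes in each sample, by group and replicate number. Defb6 is the largest part of every bar, Defb3 is a visible part only in the 4 IMQ + NS samples, and IMQ + NS replicate 3 reaches 1220.

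Slpi was at 1.22, 0.652, 1.40 and 1.25 FPKM in control samples, 16.9, 28.2, 33.2 and 22.4 FPKM with IMQ + NS, and 5.20, 5.73, 5.35 and 7.96 FPKM with IMQ + BZLF. The 3 groups were separate and in this order of level: control, IMQ + BZLF, IMQ + NS. It rose by 4.36 ± 0.27 with IMQ + NS (adjusted p = 5.9e-06) and was lower by 2.01 ± 0.21 with IMQ + BZLF than with IMQ + NS (log2 difference -2.01, adjusted p = 0.00157). It remained 2.35 ± 0.24 above control in the IMQ + BZLF group (adjusted p = 1.5e-04).

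Ltf was scarce in control skin, at 0.0821, 0.0182, 0.0280 and 0.0658 FPKM. It was at 1.42, 2.19, 2.41 and 2.29 FPKM with IMQ + NS and at 0.0376, 0.0949, 0.351 and 0.383 FPKM with IMQ + BZLF. All IMQ + NS samples were above the rest, and IMQ + BZLF replicate 1 lay within the control range while replicates 2 to 4 lay above it. Ltf rose by 3.87 ± 0.23 with IMQ + NS (adjusted p = 4.5e-06) and fell by 2.95 ± 0.40 with IMQ + BZLF against IMQ + NS (adjusted p = 0.00512). These sizes depend on the constant in the logarithm, as all control values lay below it. With a constant of 0.01 they were 5.29 and -3.65, and with a constant of 1 they were 1.54 and -1.34, still called. The difference of Ltf between IMQ + BZLF and control samples, 0.92 ± 0.43, did not pass (adjusted p = 0.0986). It did so without IMQ + BZLF replicate 1, at 1.25 (adjusted p = 0.0281).

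Camp, which encodes the only cathelicidin of the mouse, was at 1.21, 1.75, 1.71 and 0.645 FPKM in control samples. It was at 9.26, 14.7, 7.85 and 8.16 FPKM with IMQ + NS and at 4.90, 9.34, 8.93 and 6.97 FPKM with IMQ + BZLF. Every sample that had IMQ was above every control sample, and the IMQ + NS and IMQ + BZLF samples overlapped. Camp rose by 2.86 ± 0.32 in IMQ + NS (adjusted p = 1.4e-04) and by 2.46 ± 0.32 in IMQ + BZLF (adjusted p = 4.5e-04), each against control samples. Between the IMQ groups the difference was -0.40 ± 0.24, with a 95% interval from -0.95 to 0.15 (adjusted p = 0.373).

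Over the 8 genes, IMQ + NS against control samples gave 7 genes called higher (adjusted p below 0.05 and a log2 difference over 1) and 0 lower, where 11.4% of all 15288 tested genes were called higher and 1678 genes lower. All 8 had separate groups with IMQ + NS above, as had 23.7% of all tested genes, with a further 25.7% the other way round. IMQ + BZLF against IMQ + NS gave 6 called lower and 0 higher, where 2.2% of all tested genes were called lower and 0.321% higher. The same 6 had separate groups, as had 10.9% of all tested genes, with a further 4.24% the other way round. IMQ + BZLF against control gave 3 called higher, Defb4, Camp and Slpi (2 with a constant of 1, without Defb4), and 0 lower, where 9.65% of all tested genes were called higher and 10.1% lower. Of the 8 genes 4 had separate groups there, Defb1 being the fourth, as had 19.4% of all tested genes, with a further 28.1% the other way round. The 3 comparisons share samples in pairs, so they are not independent of one another. As the 8 genes were chosen with earlier results of these data known, the counts beside these shares are a description and no test.

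The median difference over the 7 genes other than Defb4 was 2.86, -2.01 and 0.84 in the same order of comparisons, whereas over all tested genes it was 0.05, -0.02 and -0.02. In exact two-sided permutation tests over samples, each of the 8 genes in the first comparison and each of the 6 called in the second reached p = 0.0286, the smallest value that 4 against 4 samples allow. In the second comparison Defb1 gave p = 0.0857 and Camp p = 0.286 by the same exact test. Without control replicate 2 the first comparison had 6 of 8 genes called higher, since Defb1 then fell below the limit.

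**Figure D3:**
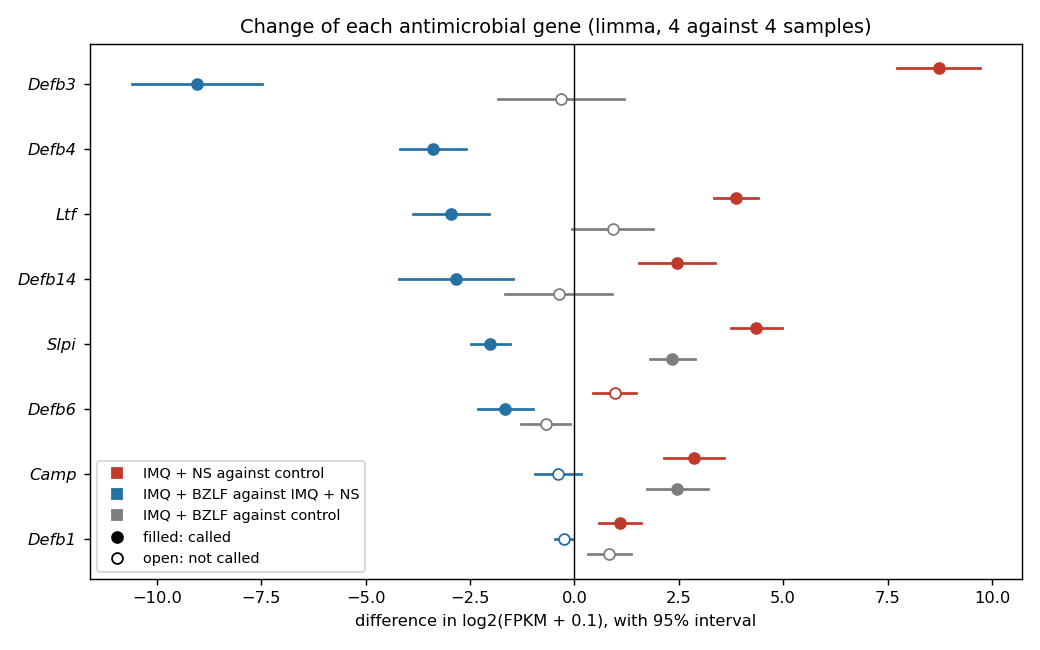
Difference in log2(FPKM + 0.1) with its 95% interval for each of the 8 genes in the 3 comparisons (colours), filled where called. Defb4 is left out of both comparisons with control samples, which list it at 0. The IMQ + BZLF against IMQ + NS points of Camp (-0.40) and Defb1 (-0.26) are open and close to 0, while the other 6 are filled and run from -9.04 to -1.65.

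The share of the excess over control that was still present with BZLF differed between the genes on the FPKM scale. The excess is the group mean minus the control mean, and the value in IMQ + BZLF samples was 71.6% of that in IMQ + NS samples for Camp, 68.2% for Defb1, 20.5% for Slpi and 8.28% for Ltf. It was 7.55% for Defb4, 0.0116% for Defb3, -1.17% for Defb14 and -35.2% for Defb6, where a negative value means an IMQ + BZLF mean below the control mean. These shares are descriptions of means, with no test. Those of Defb3 and Defb14 lay near 0 and changed sign with single samples left out, running from -0.0413% (without IMQ + BZLF replicate 1) to 0.0706% (without IMQ + BZLF replicate 4) for Defb3 and from -5.03% (without IMQ + BZLF replicate 2) to 3.40% (without IMQ + BZLF replicate 4) for Defb14, so their order is not given. That of Defb6 was -54.0% without IMQ + NS replicate 3, and stayed below 0 without any other single sample.

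The order of levels also changed with the group. In control samples it ran Defb6, Defb1, Camp, Slpi, Defb14, Defb3, Ltf and Defb4 by mean FPKM. Camp and Slpi, Slpi and Defb14, and Defb14 and Defb3 overlapped there. With IMQ + NS it ran Defb6, Defb3, Defb1, Slpi, Camp, Defb4, Defb14 and Ltf, with overlaps of Defb1 and Slpi, Camp and Defb4, Defb4 and Defb14, and Defb14 and Ltf. Defb3 was thus second there, and its highest sample, at 378 FPKM, came close to the lowest Defb6 sample, at 402 FPKM. With IMQ + BZLF the order was Defb6, Defb1, Camp, Slpi, Defb4, Defb14, Defb3 and Ltf, in which Camp and Slpi overlapped, as did each pair of neighbours from Defb4 to Ltf. IMQ + NS replicate 3 was the highest of its group for 6 of the 8 genes, and IMQ + BZLF replicate 1 was the lowest of its group for 6 of the 8. Other extremes were spread over the replicates. The highest control sample was replicate 3 for 4 genes, while Defb4 had none, being at 0 in all control samples. The lowest IMQ + NS sample was replicate 1 for 4 genes and replicate 2 for 2.

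Sequence just before the RefSeq transcription start (GRCm38.p6) was given for 5 of the 8 genes, namely Defb3, Defb6, Camp, Slpi and Ltf. These starts can differ from those of GENCODE. The window of Slpi lay inside the GENCODE gene span given above, that of Camp mostly so, and that of Ltf in small part. The 250 bases before Defb3 (chr8:19293111-19293360, plus strand) and before Defb6 (chr8:19225228-19225477, plus strand) are shown because both genes fell with IMQ + BZLF although Defb3 changed far more. Capitals mark matches to TTNNGCAA, a motif bound by C/EBP factors, on either strand.

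Defb3: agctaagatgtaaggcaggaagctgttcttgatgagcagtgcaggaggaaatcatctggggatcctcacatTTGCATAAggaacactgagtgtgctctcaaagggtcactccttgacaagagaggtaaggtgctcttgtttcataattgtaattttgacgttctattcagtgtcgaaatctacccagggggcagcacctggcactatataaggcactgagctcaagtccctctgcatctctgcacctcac

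Defb6: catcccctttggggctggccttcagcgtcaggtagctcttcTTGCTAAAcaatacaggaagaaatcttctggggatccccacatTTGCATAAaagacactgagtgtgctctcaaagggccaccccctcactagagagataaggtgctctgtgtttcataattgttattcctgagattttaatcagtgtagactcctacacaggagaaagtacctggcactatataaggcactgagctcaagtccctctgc

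Both windows were identical at 72.5% of 265 aligned positions, with a longest identical run of 39 bases. Defb3 held 1 match and Defb6 held 2, and 1 of these, 179 bases before the start in Defb3 and 166 in Defb6, had the same 8 letters. Ltf and Slpi had 1 match each and Camp had none, and 9.56% of 32851 RefSeq windows of this length held at least 1. No match was found in the 5 windows to a motif of NF-kappa B, to TTCNNNGAA, of STAT factors, or to TGANTCA, of AP-1, which 1.41%, 7.02% and 6.75% of all windows held. A match is a string of letters and says nothing of whether a factor was bound.

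For the genes with a mean of at least 1 FPKM other than Defb6, the 3 genes most like it over the 12 samples were found among 12657 genes by Pearson's r of log2(FPKM + 0.1). Because the samples fall into 3 groups, r includes the differences between group means. Defb3 was most like S100a9 (r = 0.97), Serpinb3d (0.97) and Lcn2 (0.97). Defb4 was most like the late cornified envelope gene Lce3a (r = 0.99), Klk6 (0.99) and Nbeal2 (0.99), and Slpi like Lce3c (0.98), Sidt2 (0.98) and again Lce3a (0.98). Camp was most like Fam83a (r = 0.98), Syt8 (0.97) and Chmp1b (0.97), and Defb1 like Abtb1 (0.97), Map3k8 (0.97) and Klhl21 (0.96). Defb14 had Igsf6, Dok3 and Tlr1 (0.94 each).

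Other antimicrobial proteins, not only those of skin, were taken from a list of 34, of which 31 were tested. In IMQ + NS against control samples 8 rose and 10 fell, and in IMQ + BZLF against IMQ + NS 8 fell and 2 rose, with medians over the list of -0.26 and -0.37. Of all 15288 tested genes, 11.4% rose and 1678 fell in the former comparison, and 2.2% fell and 0.321% rose in the latter. The largest falls of the latter comparison were those of S100a9 (-7.06 ± 0.34) and S100a8 (-5.92 ± 0.28), which together form calprotectin, a protein that withholds metal ions from microbes. S100a9 ran from 1541 to 4957 FPKM with IMQ + NS and from 14.8 to 29.0 FPKM with IMQ + BZLF, against 12.9 to 21.4 FPKM in control samples. Lcn2, which binds bacterial siderophores, fell by 4.21 ± 0.24, and Ngp, a neutrophil granule protein, by 3.27 ± 0.29. Pglyrp4, a peptidoglycan recognition protein, fell by 2.29 ± 0.29. The 2 that rose, named after their values were seen, were Wfdc21 (1.42 ± 0.34, adjusted p = 0.0423) and Mpo, of myeloperoxidase, which was just over the limit of 1 (SE 0.17). Under the 19 alternative settings, 0 to 2 genes of the list were called higher in this comparison.

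Like Camp, S100a7a was high in both IMQ groups, a gene named here after its values were seen. It was at 0.400, 2.37, 0.132 and 0.170 FPKM in control samples, 26.4, 23.7, 21.1 and 20.9 FPKM with IMQ + NS, and 30.2, 35.02, 26.8 and 22.2 FPKM with IMQ + BZLF. The difference between the IMQ groups was 0.30 ± 0.14 (adjusted p = 0.231). Reg3a, Reg3b, Reg3g and Zg16, also named after their values were seen, were low in replicate 4 of each group, as the pancreas markers were. Their 4 comparisons between the IMQ groups did not pass (adjusted p from 0.457 to 0.941).

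**Figure D4:**
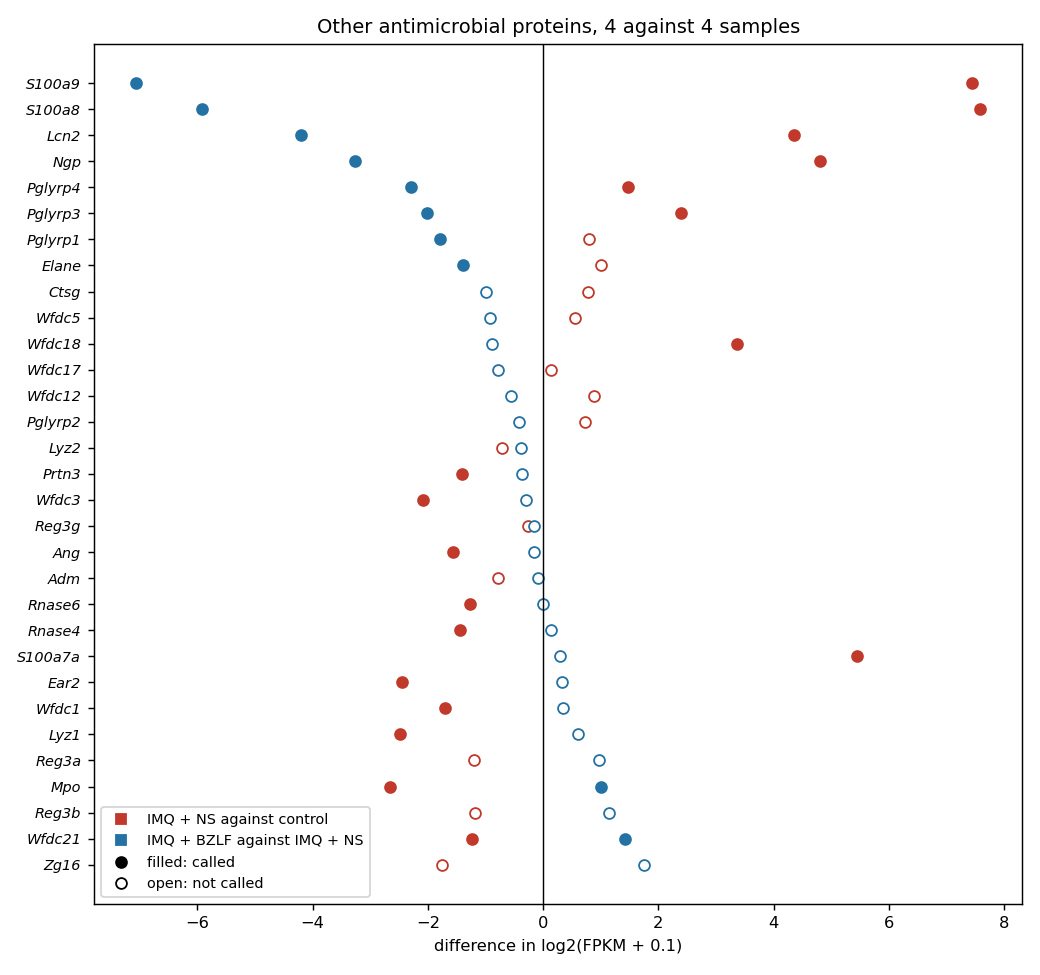
Difference in log2(FPKM + 0.1) for the 31 tested genes of the list of other antimicrobial proteins, in IMQ + NS against control (red) and IMQ + BZLF against IMQ + NS (blue) samples, filled where called. The blue points of S100a9 and S100a8 lie at -7.06 and -5.92, and that of S100a7a, whose red point lies at 5.45, is open near 0. The 2 sets of points share the IMQ + NS samples.

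A further 8 genes named Defb were in the table, of which 4 passed the filter. Between the IMQ groups 0 of these 4 were called, where 2.2% of all tested genes were called lower and 0.321% higher. Against control, Defb30 was called higher in both IMQ groups, and Defb37 higher and Defb2 lower in IMQ + BZLF only. Of all tested genes 11.4% were called higher with IMQ + NS, and 9.65% higher and 10.1% lower with IMQ + BZLF. By mean level the first 5 of the 8 were Defb25, Defb2, Defb37, Defb30 and Defb42, at 0.445, 0.275, 0.188, 0.120 and 0.0628 FPKM over the 12 samples. The summed FPKM of the 8 was 0.403 to 2.32 in a sample, against 125.4 to 1220 for the 5 genes described above.

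Of 33 genes for cytokines, receptors, inhibitors and regulators of the signals that induce antimicrobial peptides, 29 were tested. The counts include the inhibitors Il1rn, which rose with IMQ + NS against control, and Il22ra2, which fell. In IMQ + NS against control samples 9 rose and 3 fell, and in IMQ + BZLF against IMQ + NS 9 fell and 0 rose, with medians of 0.36 and -0.46. Over all tested genes 11.4% rose and 1678 of 15288 fell in the former, a share close to 3 of 29, and 2.2% fell in the latter. Il17a, the cytokine best known for inducing beta-defensins in keratinocytes, was listed at 0 in all control and all IMQ + BZLF samples and was at 0.573, 0.402, 1.08 and 0.809 FPKM with IMQ + NS. Il1b fell by 3.53 ± 0.43 with IMQ + BZLF and ran from 11.98 to 55.1 FPKM in IMQ + NS samples and from 1.44 to 3.01 FPKM in IMQ + BZLF samples. The IL-36 cytokine genes Il1f6 (encoding IL-36 alpha), Il1f8 (IL-36 beta) and Il1f9 (IL-36 gamma) fell by 3.49 ± 0.55, 1.44 ± 0.35 and 2.31 ± 0.35. Tnf fell by 1.93 ± 0.32 and Nfkbiz, an inducible nuclear cofactor downstream of IL-17 signalling, by 1.53 ± 0.15.

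Il1a did not follow Il1b, at 3.54 to 5.57 FPKM with IMQ + NS and 3.56 to 4.24 FPKM with IMQ + BZLF (difference -0.30 ± 0.14, adjusted p = 0.248). Receptor genes differed between the IMQ groups by less than the limit for a call: Il17ra by -0.46 (adjusted p = 0.0365), Il17rc by -0.50 (adjusted p = 0.00354) and Il22ra1 by -0.26 (adjusted p = 0.140). Cebpb, which encodes a C/EBP factor, was at 162 to 178 FPKM with IMQ + NS and 140 to 159 FPKM with IMQ + BZLF (difference -0.20 ± 0.06, adjusted p = 0.0765). The choice of Il17a, Il1f8, Il1a, Il1rn, Il22ra2, the receptors and Cebpb as examples was made with their values in view.

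Of 11 receptors, processing proteases and related genes of antimicrobial peptides, all tested, 4 rose and 1 fell with IMQ + NS against control, and 3 fell with IMQ + BZLF against IMQ + NS. Over all tested genes 11.4% rose and 1678 of 15288 fell with IMQ + NS, the fallen share being close to 1 of 11, and 2.2% fell between the IMQ groups. The formyl peptide receptor gene Fpr2, whose product senses cathelicidin, fell by 2.92 ± 0.30 and Fpr1 by 1.91 ± 0.34, and Elane, of a mean under 1 FPKM, was the third. Ccr6, the receptor for several beta-defensins, was at 0.530 to 0.926 FPKM with IMQ + NS and 0.158 to 0.663 FPKM with IMQ + BZLF (adjusted p = 0.312). Vdr, the vitamin D receptor, was at 8.75, 45.3, 7.98 and 9.57 FPKM in control samples and at 61.8 to 75.6 FPKM in all samples that had IMQ. Its high control value was in replicate 2, the one with hair shaft transcripts. Vdr rose by 2.40 ± 0.50 with IMQ + NS (adjusted p = 0.00352) and differed by -0.03 ± 0.07 between the IMQ groups (adjusted p = 0.813). Elane, Ccr6 and Vdr were named with their values known.

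Neutrophil markers moved beside these genes, and in whole skin fewer neutrophils and less RNA per cell cannot be told apart. Of 12 markers 11 rose and 1 fell in IMQ + NS against control samples, and 11 fell in IMQ + BZLF against IMQ + NS, with medians of 2.71 and -2.47, where 11.4% of all tested genes rose in the former and 2.2% fell in the latter. Their summed FPKM was 42.8 to 68.5 in control samples, 64.4 to 127 with IMQ + NS and 17.4 to 28.1 with IMQ + BZLF. Il1r2, the exception and named for that after its values were seen, was highest in control samples, at 20.9 to 41.9 FPKM. Neutrophil granule genes of the list of other antimicrobial proteins did not all rise with IMQ + NS. Against control, Mpo fell by 2.66 ± 0.20 and Prtn3 by 1.41 ± 0.24, Elane and Ctsg were not called, and Ngp rose. These granule genes were named with their values known. Ly6g, a defining marker, was at 0.0267, 0, 0.0273 and 0 FPKM in control samples, 1.12, 0.475, 1.41 and 0.426 FPKM with IMQ + NS, and 0.0275, 0.0556, 0 and 0.443 FPKM with IMQ + BZLF. Cxcr2, the chemokine receptor of neutrophils, fell by 3.08 ± 0.40 with IMQ + BZLF, Retnlg by 3.15 ± 0.31 and Csf3r by 2.43 ± 0.27.

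Ltf and Ngp, whose products share the secondary granule, fell with them. Camp, whose product is kept in the same granule, was not called between the IMQ groups. In IMQ + BZLF samples Ngp was at 0.710, 0.426, 1.16 and 1.22 FPKM while Camp was at 4.90 to 9.34 FPKM. In IMQ + NS samples the 2 genes overlapped in level, Ngp at 6.41 to 9.92 FPKM and Camp at 7.85 to 14.7 FPKM. The part of neutrophils in the values of Ltf, Slpi and Camp was not tested.

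**Figure D5:**
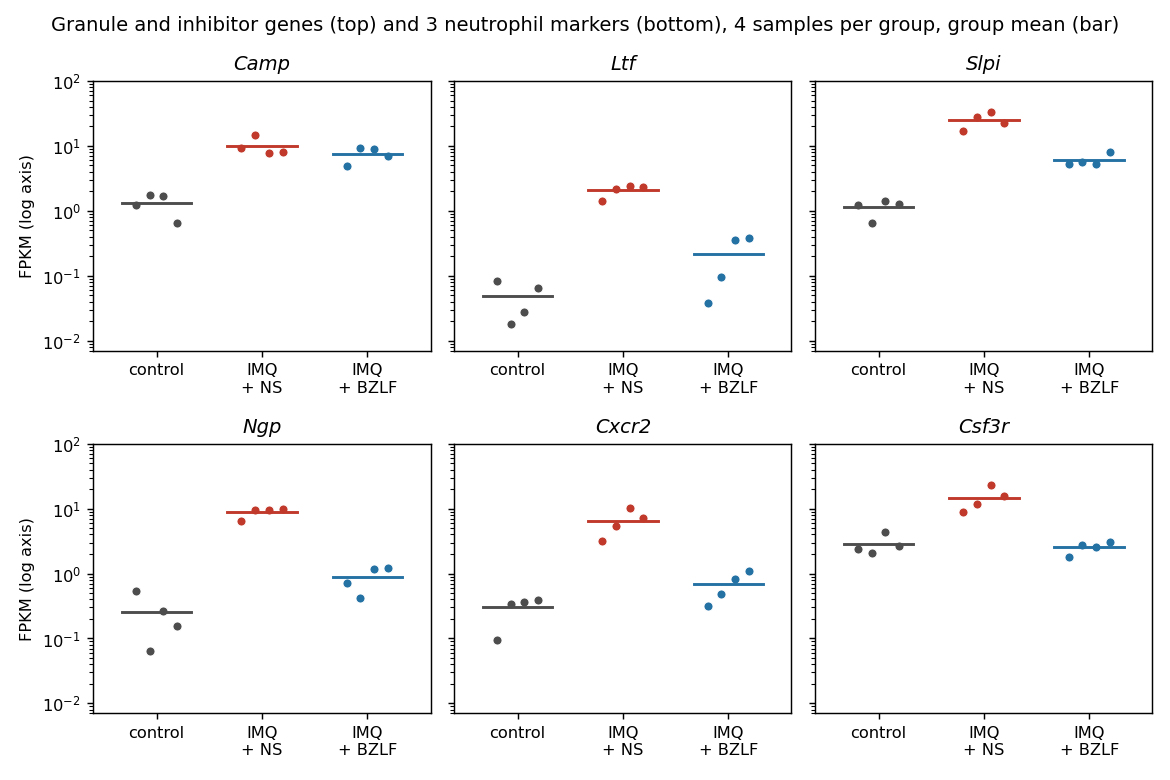
FPKM (log axis) of Camp, Ltf and Slpi (top) and of the neutrophil markers Ngp, Cxcr2 and Csf3r (bottom) in each sample by group, with bars at the group means. Ltf, Ngp, Cxcr2 and Csf3r are lower in all 4 IMQ + BZLF samples than in any IMQ + NS sample, and Camp overlaps between these groups.

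Keratinocyte genes moved as well. The activated keratinocyte markers Krt6a, Krt6b, Krt16 and Krt17 all rose with IMQ + NS, and 3 of these 4 fell with IMQ + BZLF, Krt16 by 4.95 ± 0.54 and Krt6b by 4.42 ± 0.38. All 4 were above control in IMQ + BZLF samples, by 2.04 to 3.20. Of all 15288 tested genes, 11.4% were called higher with IMQ + NS, and 2.2% were called lower between the IMQ groups. In IMQ + BZLF against control, 9.65% were called higher. Of 8 basal and spinous keratinocyte markers 5 rose with IMQ + NS and 1, Krt14, fell with IMQ + BZLF (-1.54 ± 0.22), their summed FPKM being 2037 to 3178 in control samples, 5178 to 8010 with IMQ + NS and 2584 to 4072 with IMQ + BZLF. The 8 hair shaft and inner root sheath markers were all higher in both IMQ groups than in control samples and 0 of them were called between the IMQ groups. Their summed FPKM was 8391 to 10810 with IMQ + NS and 10291 to 14761 with IMQ + BZLF. The part of these shifts in the values of the beta-defensins was not tested.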

How the data were processed

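Skin RNA from 12 samples (4 per group, labelled in 3 groups) was sequenced. The authors deposited 1 FPKM value per gene and sample, not on a log scale and not pooled. The study's methods name Bowtie2 and eXpress and mirVana extraction, whereas the submitters' processing notes name fastp, HISAT2, HTSeq and mm10 and the labels name TRIzol and another library kit. Which of them made the values is not given in the sources used here. FPKM depends on the transcript length assumed, which matters for short genes such as the beta-defensins, and read counts and single-sample depth were not analysed here, so the precision comes from the 4 replicates.

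Genes averaging 0.1 FPKM or more (15288 of 18505) were tested on log2(FPKM + 0.1) with limma 3.58.1 in R 4.3.3 (moderated variances with a trend), each pair of groups apart, with Benjamini-Hochberg adjustment over all tested genes. Calls required a log2 difference over 1 in size and an adjusted p under 0.05. The constant understates changes of low genes. Single genes were also compared by two-sided exact permutation tests over samples. Whether samples came from separate mice is not in the labels, so p-values measure the spread between these samples. No 2 samples of a group were identical.

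The 8 genes and all lists were chosen with earlier results of these data known. All 8 genes were named. From each list up to 5 genes with the largest change between the IMQ groups were named among those called averaging 1 FPKM or more, plus defining markers, and further names were chosen with their values known. Of 160 listed symbols 152 matched directly, 3 by a RefSeq synonym and 5 did not. Positions and coding sequences came from GENCODE vM21 (GRCm38), upstream sequences from RefSeq. Over all tested genes, same-numbered samples did not deviate together in every pair (r from -0.152 to 0.260), and the main tests used no pairing. Foreign transcripts were nonetheless at like levels in same-numbered control and IMQ + BZLF samples, so these samples may not be independent. Alternatives were other constants, filters, scalings and variance settings, 1 fit of all 12 samples, a replicate block and leaving out each sample. The method was tested on simulated data. The genes most like Defb6 in pattern are not reported here.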

Additional observations from a re-analysis of the deposited data

Results flagged for a closer look

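Each of the 8 genes was checked in each group for a sample far from the others of its group, by Dixon's test, in 24 groups of 4 values. Chance flags about 1 in 20 groups, and 1 was found: Defb6 in IMQ + NS replicate 3, at 781 FPKM. The gap to the next sample was 0.920 of the range of the group, above Dixon's 95% critical value for 4 samples. The same sample was the highest of its group for 6 of the 8 genes. Without it Defb6 differed by 0.75 on the log2 scale between the IMQ + NS and control groups, and by -1.43 between the IMQ + BZLF and IMQ + NS groups, and its calls were the same.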

How the results depend on the processing

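The counts of called antimicrobial genes stayed within 1.5 times their main value under all alternatives. Leaving out 1 sample at a time gave 6 to 8 called higher in IMQ + NS against control, 5 to 6 called lower in IMQ + BZLF against IMQ + NS and 3 to 4 called higher in IMQ + BZLF against control. With the replicate block these counts were 7, 6 and 3, as without it, and no call of the 8 genes changed. Same-numbered samples correlated best with each other in 2, 3 and 2 of 4 pairs. Of single genes, Defb1 in IMQ + NS against control dropped to 0.96 with equal sums and 0.98 with quantile normalization, Defb14 in IMQ + BZLF against IMQ + NS lost its call with no filter on low values (adjusted p = 0.0684, more genes being tested), and Defb4 in IMQ + BZLF against control, with control samples at 0, lost its call with a constant of 1, which sets the size of that difference. Without IMQ + BZLF replicate 4 the uncalled differences from control of Defb3 and Defb14 changed sign, to 0.24 and 0.12 (ranges over single left-out samples -0.73 to 0.24 and -0.72 to 0.12), and without control replicate 4 Defb1 passed the limit there, at 1.02. Equal sums moved the median of all genes in IMQ + NS against control from 0.05 to -0.07, and in IMQ + BZLF against control from -0.02 to -0.12. It changed the split of calls over all genes from 1740 higher and 1678 lower to 1463 and 2017 in the former and from 1475 and 1542 to 1295 and 1869 in the latter. With a constant of 1 the calls over all genes were 1168 higher and 1023 lower in IMQ + NS against control and 979 and 865 in IMQ + BZLF against control, and those in IMQ + BZLF against IMQ + NS went from 49 higher and 336 lower to 17 and 188, and leaving out 1 sample gave 19 to 78 higher and 227 to 350 lower. A mean of at least 1 FPKM left 7 neutrophil markers and 6 genes of the inducing-signal list called higher in IMQ + NS against control. As many were called lower in IMQ + BZLF against IMQ + NS, since low genes were then not tested. Exact permutation tests were not run with 3 against 4 samples.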
